A study of Mus musculus with 67 samples.

Results

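The 10 genes described here are the immediate early genes Fos, Fosb, Jun, Junb, Egr1, Ier2, Atf3 and Dusp1 and the inducible heat shock genes Hspa1a and Hspa1b. They were chosen by name, as genes that can respond to dissociation or culture of cells, and are 10 of the 25006 genes in the table. All 10 passed the filter on low values, which 15567 genes passed. Their levels are given over 67 RNA-seq libraries in 23 groups of wild-type mouse embryos, in TPM, a transcript share scaled for length that can be compared between genes.

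The study followed the lineages of the mouse embryo around implantation, from embryos of a line with an EGFP reporter under the Pdgfra promoter. Inner cell mass (ICM) and trophectoderm (TE) came from embryonic day 3.5 (E3.5), with TE again at E4.5. Epiblast (Epi) was sampled at E4.5, at E4.75, then at E5.0, E5.25 and lastly E5.5, and primitive endoderm (PrE) at all but the last of these ages. Further trophoblast tissues, ectoderm next to the embryo proper (extra-embryonic ectoderm, ExE) and giant cells (TGC), came from E4.75 and E5.5, and visceral endoderm (VE) from E5.5. The E5.5 groups are labelled in vitro (embryos grown in 3D culture and freed from Matrigel) or in vivo (embryos freed from decidua). In vivo VE is split into VE_Epi and VE_ExE. At E5.0 and at E5.25, some Epi libraries carry an in vivo suffix and others none. All PrE groups and all groups of E3.5, E4.5 and E4.75 also carry none. How the unsuffixed embryos were grown is not stated in the labels, so growth may differ between groups of different age or tissue. There were 3 libraries in a group, but only 2 for each of VE_Epi, ExE and Epi from in vivo E5.5 embryos, and 4 for cultured TGC. The protocol mentions 3 biological replicates per group without saying whether they were separate litters, so the p-values measure the spread between these libraries. The protocol describes pronase, calcium-free medium and pipetting for E3.5 embryos, and digestion with 0.05% trypsin-EDTA for a range of ages, cultured or not, that also begins at E3.5. Which of these the E3.5 libraries went through is therefore uncertain. Each library was made from 10 to 100 cells. All 23 groups were thus dissociated before lysis.

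Immediate early genes are transcribed within minutes of a signal, without new protein synthesis, and their RNAs are short-lived. Growth factors acting through MAP kinases, mechanical strain and enzymatic dissociation of tissue all can induce them, and several also have steady roles in trophoblast and other embryonic tissues. Hspa1a and Hspa1b encode the inducible HSP70 chaperone, which is switched on by heat shock factor when proteins misfold.

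Some libraries stood apart. Rn45s, the ribosomal RNA precursor, took 22.03% of the TPM on average in Epi of E4.5, 17.6% in PrE of E4.5 and 9.33% in Epi of E5.0 in vivo. In no other group did its mean pass 1.01%. Replicate 1 of Epi of E4.5 listed 3307 genes at 0, against 13659 and 12723 in replicates 2 and 3. Epi of E5.0 in vivo also had the lowest summed level of 5 epiblast markers among Epi groups, 110 to 177 TPM, against 468 to 568 TPM in unsuffixed Epi of E5.0. More genes reached 1 TPM in every cultured E5.5 group than in its in vivo counterpart, for example 11058 to 11170 against 9465 to 9931 in Epi. In bulk libraries such as these, fewer cells of a type and less RNA per cell cannot be told apart, and the part of any of these differences in the results was not tested.

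Fos encodes a partner subunit of the AP-1 transcription factor, and Fosb its close relative. Fos (chromosome 12, 85473890 to 85477273, GRCm38) was detected in all 67 libraries, with a lowest value of 3.37, a median of 41.4 and a highest of 288 TPM. The 2 ExE libraries of E5.5 in vivo held 288 and 235 TPM, above every library of the next group. TGC and ExE of E5.5 in vitro, TE of E4.5 and VE of E5.5 in vitro followed at group means of 129, 128, 125 and 124 TPM, which overlapped. Epi of E5.5 in vivo, at 8.02 and 7.17 TPM, had the lowest mean TPM, but overlapped with PrE of E4.5 and E5.0 and other low groups. Fosb (chromosome 7, 19302696 to 19310051) was low throughout, listed at 0 in 24 libraries and at most 7.97 TPM. Its highest group, again ExE of E5.5 in vivo, held 5.15 and 7.97 TPM.

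Jun and Junb encode the AP-1 subunits that pair with the Fos proteins. Jun (chromosome 4, 95049034 to 95052222) had a median of 8.94 TPM and was highest in VE of E5.5 in vitro, with 45.0, 66.99 and 67.2 TPM in the 3 libraries. Junb (chromosome 8, 84974484 to 84978718) had a median of 49.2 TPM. It was highest in TGC of E5.5 in vitro, whose 4 libraries held 300.1, 333, 303 and 310.3 TPM. The lowest Junb group was Epi of E5.0 in vivo, with 4.49, 3.21 and 2.00 TPM, and it overlapped with TE of E4.5 at 4.86, 4.36 and 6.37 TPM. The Junb gene overlaps Prdx2 on the other strand, and since any use of strand is not given in the sources used here, reads of the pair may not be separated.

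Egr1, a zinc finger factor induced through serum response factor, was highest in Epi of E4.5, with 154, 169 and 152 TPM. PrE of E4.5 came next with 59.6, 52.1 and 65.9 TPM, and TE of E4.5 was among the lowest with 0.99, 1.46 and 1.00 TPM. Atf3, a stress-responsive bZIP factor (chromosome 1, 191170296 to 191218039), also had its highest means at E4.5. Its level there was 46.0, 43.6 and 51.0 TPM in PrE and 61.0, 25.7 and 43.3 TPM in Epi. PrE of E5.25, at 25.3, 45.5 and 24.8 TPM, overlapped with both. Atf3 was listed at 0 in 7 libraries. Ier2, a short nuclear immediate early protein (chromosome 8, 84661331 to 84662852), was the most evenly high member. No library fell under 56.7 TPM, and the highest, of Epi of E5.5 in vitro, held 539 TPM. Dusp1, a phosphatase that switches MAP kinases off (chromosome 17, 26505590 to 26562128), ranged from 6.30 to 366 TPM. Its top groups were ExE of E5.5 in vivo (323 and 366 TPM) and ExE of E5.5 in vitro (277, 259 and 307 TPM). This span is that of GENCODE, and there Dusp1 overlaps Ergic1 on the other strand. The 250 bases upstream of the RefSeq start of Dusp1 lie at 26508473 to 26508722, inside that span, so the sources differ in the start.

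**Figure D1:**
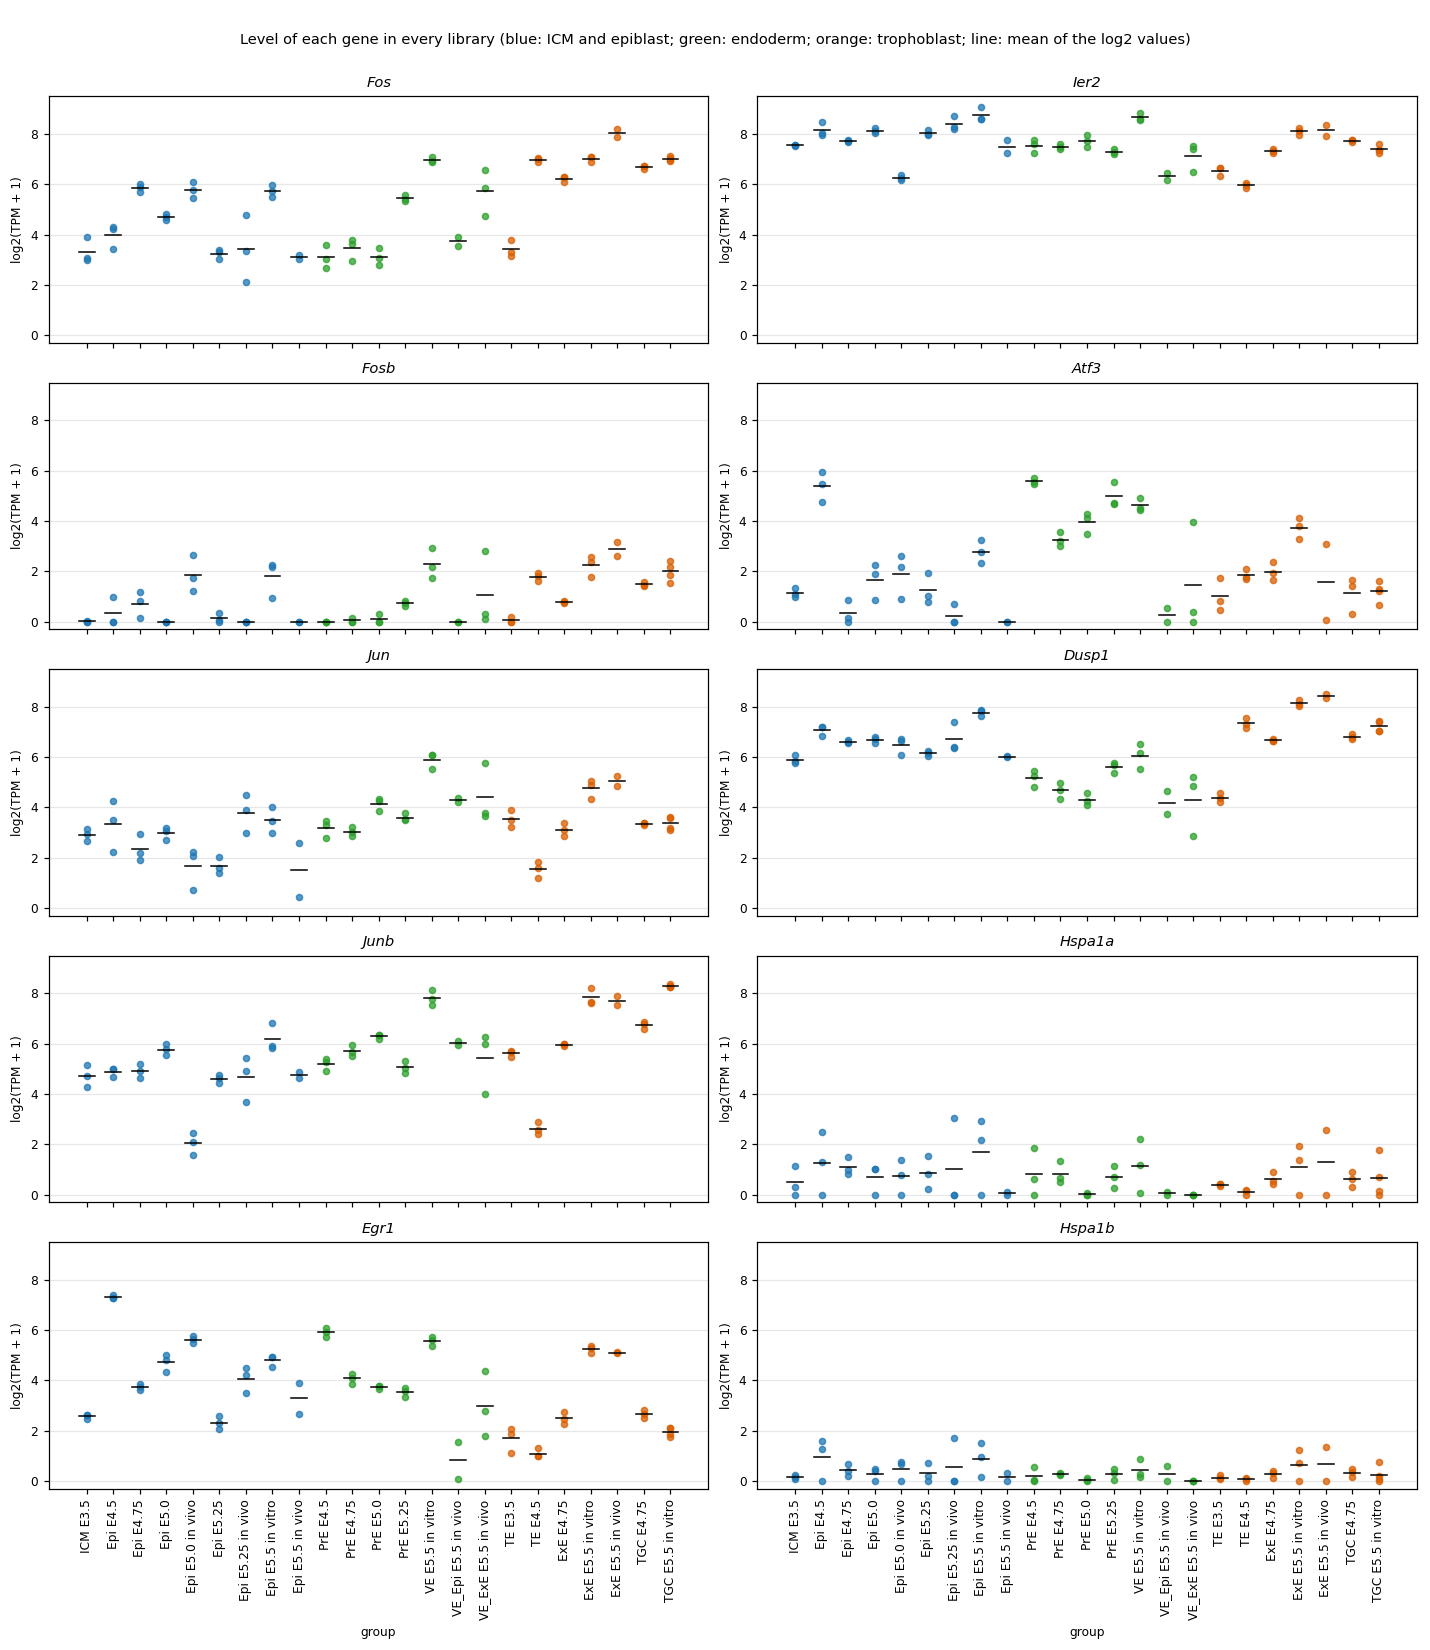
Level of each of the 10 genes as log2(TPM + 1) on the vertical axis in the 23 groups on the horizontal axis, with 1 point per library and a line at the mean of the log2 values. Fos is highest in the trophoblast groups from E4.5 on and in cultured VE. Egr1 and Atf3 have their highest means at E4.5 in Epi or PrE, but Atf3 in PrE of E5.25 overlaps with these. Hspa1a and Hspa1b stay near the floor everywhere.

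Hspa1a (chromosome 17, 34969190 to 34972156) and Hspa1b (chromosome 17, 34956436 to 34959238) were near the floor in all groups. Their summed level had a median of 0.580 TPM over the 67 libraries, was 0 in 13 and reached 5 TPM in 4. The highest single value was 7.25 TPM of Hspa1a in 1 library of Epi of E5.25 in vivo, whose other 2 libraries were listed at 0. Of the windows of 50 bases in the GENCODE transcript of Hspa1a, 58.8% also occur in Hspa1b, so the split of reads between the pair is uncertain. Other chaperones were abundant in the same libraries. The constitutive HSP70 gene Hspa8 ranged from 1758 to 9797 TPM, and Hsp90aa1, a stress-inducible HSP90, from 633 to 3676 TPM.

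The 250 bases upstream of the RefSeq start (GRCm38.p6) are shown for Fos, whose level is followed through the comparisons below, and for the near-identical Hspa1a and Hspa1b, all 5′ to 3′ on the strand of the gene. They lie at chr12:85473640-85473889 (plus strand), chr17:34972157-34972406 (minus strand) and chr17:34959239-34959488 (minus strand). Capitals mark TATAAA in Fos, and GAANNTTC, a core of the heat shock element, and CCAAT (read on the other strand) in the Hspa1 pair.
Fos: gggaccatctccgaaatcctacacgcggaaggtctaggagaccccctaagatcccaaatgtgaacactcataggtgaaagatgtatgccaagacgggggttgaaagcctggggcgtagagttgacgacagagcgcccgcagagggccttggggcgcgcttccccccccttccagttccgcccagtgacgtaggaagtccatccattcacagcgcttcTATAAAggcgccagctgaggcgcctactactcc
Hspa1a: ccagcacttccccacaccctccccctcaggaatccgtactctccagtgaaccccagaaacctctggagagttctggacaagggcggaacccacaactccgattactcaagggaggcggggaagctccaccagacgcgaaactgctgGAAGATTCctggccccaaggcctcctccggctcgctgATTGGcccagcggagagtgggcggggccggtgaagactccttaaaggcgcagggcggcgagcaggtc
Hspa1b: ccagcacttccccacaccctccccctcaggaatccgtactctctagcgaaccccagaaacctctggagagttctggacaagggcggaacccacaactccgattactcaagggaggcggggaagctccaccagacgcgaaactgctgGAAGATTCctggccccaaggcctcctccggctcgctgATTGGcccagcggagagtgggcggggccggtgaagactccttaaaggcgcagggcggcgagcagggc
The Hspa1a and Hspa1b windows were equal at 247 of 250 bases. Windows of 8 of the 10 members were searched. No promoter entry was found for Ier2, and Egr1 was left out of the search, so the counts say nothing of the Egr1 promoter. Searched on both strands, GAANNTTC occurred in 3 of the 8 (Jun and the Hspa1 pair) and in 6.69% of 32851 promoters. CCAAT occurred in 4 of the 8 (33.8% of all), TATAAA in 1 (Fos, 12.4% of all) and the cyclic AMP element TGACGTCA in 1 (Dusp1, 1.55% of all). The CArG box (1.47% of all), the AP-1 site TGANTCA (6.75%) and the other heat shock core TTCNNGAA (7.17%) occurred in none of the 8 windows. These counts describe the letters in these windows only.

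Epi grown in culture held more RNA of 8 of the 10 genes at E5.5 than Epi dissected from the uterus. The question of this comparison is how culture and dissection differ in the same tissue at the same labelled age. Fos was 43.5, 51.3 and 61.9 TPM in vitro and 8.02 and 7.17 TPM in vivo. The 2 groups did not overlap, and the log2 difference was 2.62 ± 0.39 (standard error here and below, adjusted p = 5.81e-07, limma). Dusp1 was 196, 231 and 225 TPM in vitro against 64.1 and 62.6 TPM in vivo, a log2 difference of 1.76 ± 0.33 (adjusted p = 4.21e-05). Ier2 was 539, 388 and 381 TPM against 214 and 148 TPM (1.27 ± 0.19, adjusted p = 1.13e-06). Each cultured library again lay above each in vivo one. Junb was 111, 59.2 and 56.0 TPM against 28.1 and 23.8 TPM, a log2 difference of 1.44 ± 0.37.

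Egr1 was 29.8, 22.3 and 29.5 TPM in cultured Epi against 13.8 and 5.43 TPM in vivo (log2 difference 1.52 ± 0.38). Jun was 15.3, 9.91 and 7.02 TPM against 0.36 and 4.999 TPM (1.98 ± 0.49). Both rested on 1 in vivo library. Without in vivo replicate 1 the Jun difference was 0.91 and was no longer called, and without in vivo replicate 2 the Egr1 difference was 0.91 and no longer called. Fosb and Atf3 were listed at 0 in both in vivo libraries. In culture Fosb was 3.52, 3.82 and 0.92 TPM (adjusted p = 0.00104, limma) and Atf3 5.88, 8.56 and 3.97 TPM (adjusted p = 0.000855). Hspa1a was listed at 0 in 1 cultured library and was 6.68 and 3.56 TPM in the others, against 0.08 and 0 TPM in vivo (adjusted p = 0.0776). Without in vitro replicate 1, Hspa1a (2.51) and Hspa1b (1.07) were called higher.

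Calls required a log2 difference of at least 1 in either direction and an adjusted p under 0.05. In cultured against in vivo Epi of E5.5, 8 of 10 members were called, all higher, where 21.8% of all genes were called and 15.1% were called higher. The members' median log2 difference was 1.71, against 0.18 over all genes. Scaling libraries by median ratios brought the latter to 0.02, and the share of all calls that were higher from 69.1% to 55.1%. With a fit of these 2 groups alone, which have 5 libraries, 3 members were called. Markers of other cell types moved with the comparison. The summed level of 4 giant cell markers was 83.8 to 192 TPM in cultured Epi and 0 in vivo, and that of 4 immune markers 1.87 to 14.2 TPM against 0. The sum of 6 endoderm markers was lower in culture, 2.92 to 3.498 against 33.6 to 52.8 TPM. Markers of TE and ExE summed to 321 to 404 TPM in culture and 150 to 175 TPM in vivo. The epiblast markers themselves summed to 1306 to 1450 TPM in culture and 592 to 755 TPM in vivo. Actb, a cytoskeletal actin gene, took 1.38% of the TPM on average in culture and 5.84% in vivo. The part of any of these shifts in the result was not tested.

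**Figure D2:**
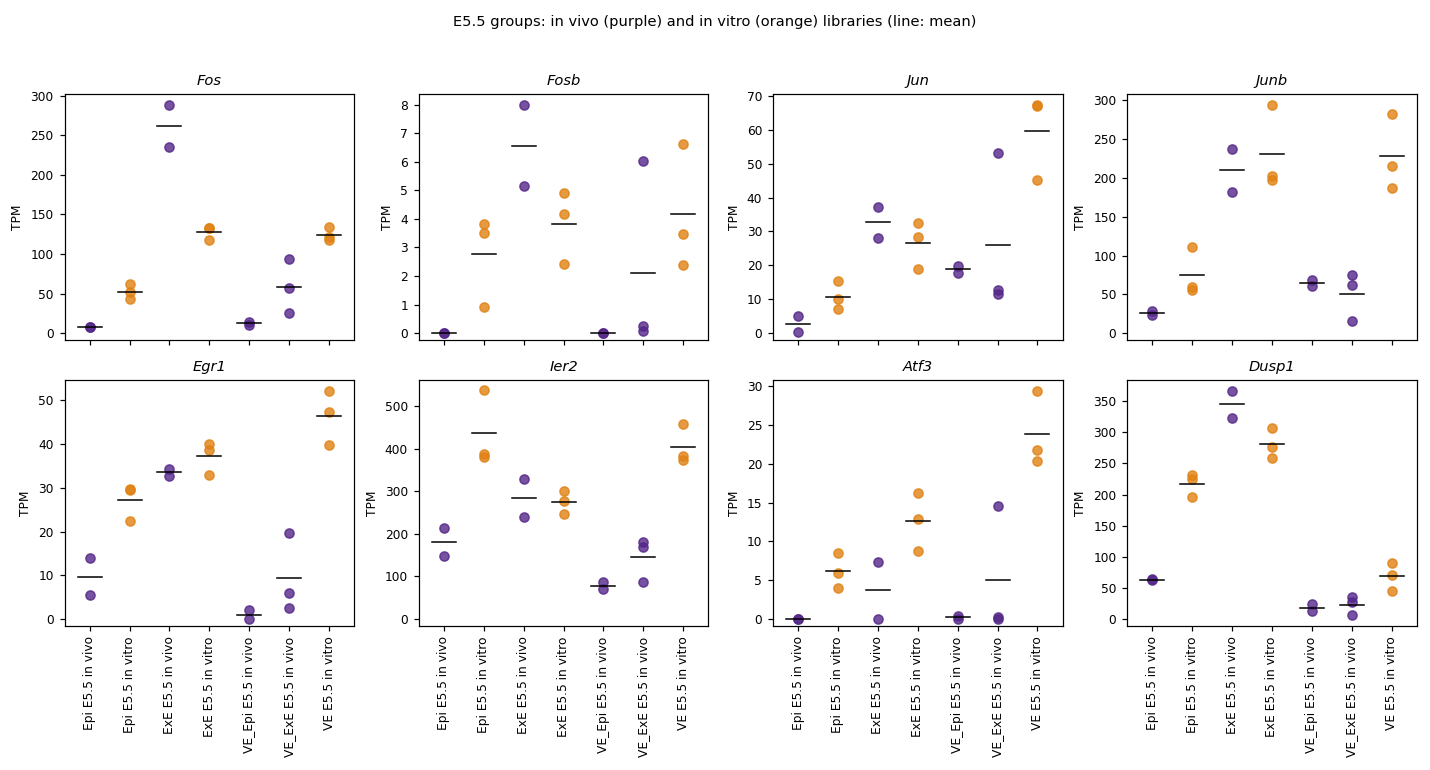
TPM of the 8 immediate early genes on the vertical axis in the E5.5 groups of Epi, ExE and VE on the horizontal axis, with 1 point per library (orange in vitro, purple in vivo) and a line at each mean. Orange points lie above purple ones in Epi for all 8 genes, while in ExE the in vivo libraries are higher for Fos, Fosb and Dusp1.

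Cultured VE of E5.5 was compared with the mean of the 2 in vivo VE groups, and again 8 of 10 members were called, all higher, where 27.9% of all genes were called. Egr1 was 47.4, 52.1 and 39.9 TPM in culture, 0.07 and 1.94 TPM in VE_Epi and 19.6, 5.92 and 2.46 TPM in VE_ExE. Its log2 difference was 3.66 ± 0.31 (adjusted p = 4.35e-14, limma). Atf3 was 20.4, 21.8 and 29.4 TPM in culture, 0.44 and 0 TPM in VE_Epi, and 0, 0.30 and 14.6 TPM in VE_ExE (3.76 ± 0.53, adjusted p = 8.22e-08). In VE_ExE, Egr1 was highest in replicate 1 and Atf3 in replicate 3, and all in vivo libraries lay below the cultured ones. Fos was 121, 118 and 134 TPM in culture, 10.7 and 14.1 TPM in VE_Epi, and 93.6, 25.4 and 56.6 TPM in VE_ExE (2.25 ± 0.31).

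Junb was 215, 187 and 283 TPM in cultured VE and at most 75.5 TPM in the 5 in vivo libraries, a log2 difference of 2.10 ± 0.29. Ier2 was 375, 382 and 458 TPM against at most 182 TPM (1.94 ± 0.16), and Dusp1 70.4, 45.3 and 89.7 TPM against at most 35.7 TPM (1.82 ± 0.27). Jun and Fosb were also called, at 1.55 ± 0.40 and 1.74 ± 0.35, but their groups overlapped. In VE_ExE replicate 1, Jun was 53.3 and Fosb 6.04 TPM, within the range of the cultured libraries, and with quantile normalization the Fosb difference was 0.69 and not called. The members' median was 1.88 against 0.33 over all genes, which median-ratio scaling brought to 0.08. The share of all calls that were higher went from 82% to 61.9% with that scaling. In a fit of the VE groups alone 3 members were called, and with either in vivo VE group alone as reference 8 were called. Actb took 3.04% of the TPM in cultured VE and 10.2% and 13.3% in VE_Epi and VE_ExE. The 5 markers of TE and ExE summed to 2868 to 3228 TPM in cultured VE, 1181 to 1227 TPM in VE_Epi and 513 to 1371 TPM in VE_ExE. Their part in the result was not tested.

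ExE showed another pattern, with 1 of 10 members called, where 11.8% of all genes were called. Fos was 132, 117 and 133 TPM in culture and 288 and 235 TPM in vivo. The groups did not overlap, with in vivo ExE higher, but the log2 difference of -1.02 ± 0.39 did not pass the test (adjusted p = 0.0651, limma). It was called with median-ratio scaling (-1.22), with quantile normalization (-1.20) and in a fit of these 2 groups alone (-1.02). Dusp1 was 277, 259 and 307 TPM in culture and 323 and 366 TPM in vivo (-0.30 ± 0.33). Junb, with 294, 198 and 203 TPM against 237 and 182 TPM, and Egr1, with 38.6, 32.9 and 40.1 TPM against 34.4 and 32.7 TPM, overlapped between the groups. The 1 call was Atf3, at 16.3, 8.78 and 12.9 TPM in culture and 0.05 and 7.40 TPM in vivo (2.16 ± 0.66, adjusted p = 0.0168). It was lost without in vitro replicate 1 (1.97) and without in vivo replicate 1 (0.66), and with median-ratio scaling (1.87) and quantile normalization (1.38).

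The members' median log2 difference in ExE was -0.11 against 0.19 over all genes, the latter 0.05 with median-ratio scaling. Of all calls, 79.5% were higher, and 67.1% with that scaling. Cultured ExE also held 257 to 299 TPM of the 6 endoderm markers against 0.93 to 6.05 TPM in vivo, and all 6 were called higher. Markers of TE and ExE summed to 2971 to 3684 TPM in cultured ExE and 1164 to 1489 TPM in vivo. Actb took 3.77% of the TPM on average in culture and 6.21% in vivo. The part of any of these shifts in the ExE values was not tested.

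**Figure D3:**
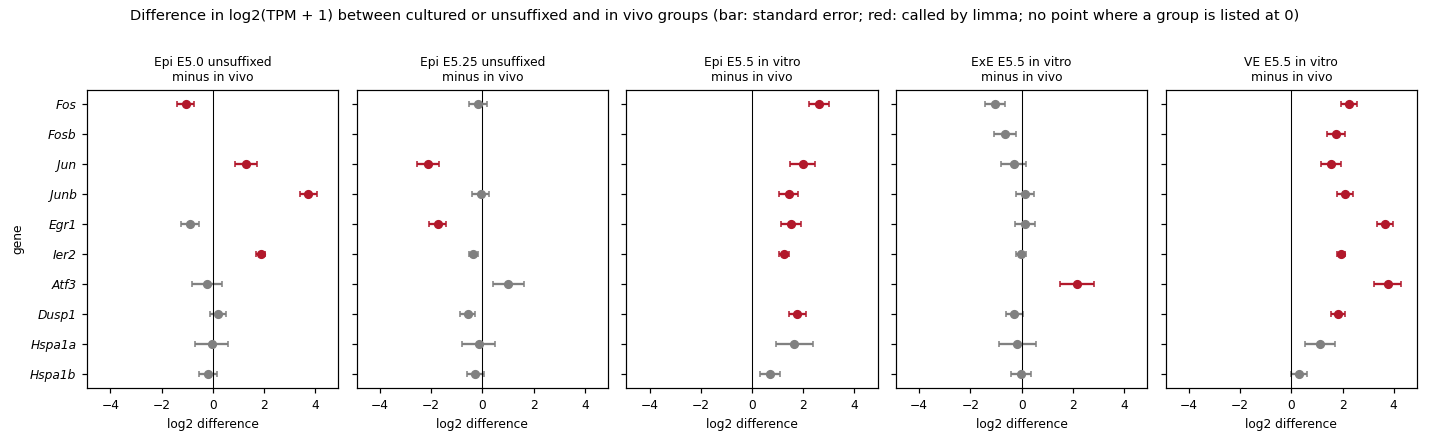
Difference in mean log2(TPM + 1) on the horizontal axis for each of the 10 genes on the vertical axis, in 5 comparisons, with bars of 1 standard error and red for called differences. Points are left out where 1 group is listed at 0. At E5.5, Epi and VE lie to the right of 0 for all genes shown, and in ExE Atf3 alone is red.

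These in vitro minus in vivo differences were then compared between tissues, in 3 pairs that share libraries with the comparisons above and with each other. ExE against Epi gave 5 members called, all lower in ExE, where 10% of all genes were called. These were Fos (-3.64 ± 0.55, adjusted p = 3.5e-06, limma), Fosb (-2.45 ± 0.61), Jun (-2.28 ± 0.70), Dusp1 (-2.05 ± 0.47) and Ier2 (-1.30 ± 0.28). The size for Fosb depends on the pseudocount, since in vivo Epi was listed at 0. Without in vivo Epi replicate 1 the Jun value was -1.21 and not called. It was also not called without in vitro Epi replicate 1 (-2.01), in vitro ExE replicate 2 (-2.06) or in vivo ExE replicate 1 (-2.08).

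VE against ExE gave 7 members called, all higher in VE, where 10.7% of all genes were called. Of those calls 60.9% were higher, and 46.1% with median-ratio scaling. Egr1 (3.52 ± 0.49), Fos (3.27 ± 0.50) and Fosb (2.40 ± 0.55) had the widest gaps, followed by Dusp1 (2.12 ± 0.43), Ier2 (1.98 ± 0.25), Junb (1.97 ± 0.47) and Jun (1.85 ± 0.63). The size and rank of Fosb depend on the pseudocount here too, since Fosb in VE_Epi was listed at 0. The Jun call was lost when any of 10 single libraries was left out, at values from 1.63 to 2.05. VE against Epi gave 1 member called, Egr1, at 2.14 ± 0.49 (adjusted p = 0.00168), where 12.4% of all genes were called. Without in vivo Epi replicate 1 it was 1.54 and not called. Over the 3 pairs 13 member differences were called, and 4 in a fit of only the groups compared.

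Unsuffixed Epi of E5.0 differed from Epi of E5.0 in vivo in 5 members, in both directions, where 25% of all genes were called. Junb was 61.6, 45.2 and 54.7 TPM without the suffix and 4.49, 3.21 and 2.00 TPM in vivo, a log2 difference of 3.73 ± 0.33 (adjusted p = 2.39e-13, limma). Ier2 was 258, 303 and 277 TPM against 81.6, 71.0 and 74.7 TPM (1.87 ± 0.17), and Jun 7.27, 5.61 and 7.98 TPM against 3.74, 0.67 and 3.20 TPM (1.30 ± 0.44). Fos went the other way, at 22.9, 27.4 and 25.2 TPM against 42.6, 67.7 and 53.2 TPM (-1.06 ± 0.35). Fosb was listed at 0 in all 3 unsuffixed libraries and was 1.32, 5.29 and 2.37 TPM in vivo (adjusted p = 0.000108). Egr1, at 27.4, 19.5 and 31.5 TPM against 43.4, 52.8 and 49.0 TPM, had a log2 difference under 1 in size (-0.89 ± 0.34). It passed with median-ratio scaling (-1.54), with quantile normalization (-1.46), with Rn45s left out (-1.01) and without unsuffixed replicate 3 (-1.03). No Egr1, Fos or Junb library of 1 group lay within the range of the other.

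Leaving out in vivo replicate 2 ended the calls of Fos (-0.90) and Jun (0.82) at E5.0. Fos was also lost without unsuffixed replicate 1 (-1.0), and Jun without unsuffixed replicate 1 (1.26) or 3 (1.20), with median-ratio scaling (0.82) and with quantile normalization (0.58). Of all calls 92.1% were higher without the suffix, and 63.8% with median-ratio scaling, which moved the median of all genes from 0.39 to 0.10. The members' median was -0.12. The in vivo group is the one with 9.33% Rn45s and low epiblast markers. Giant cell markers summed to 92.5 to 108 TPM without the suffix and 10.3 to 27.0 TPM in vivo, and endoderm markers to 39.8 to 60.2 against 0 to 4.05 TPM. The part of these in the differences was not tested.

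At E5.25, 2 members were called, both lower in unsuffixed than in in vivo Epi, where 10.7% of all genes were called. Jun was 1.62, 2.04 and 3.10 TPM without the suffix and 21.5, 6.99 and 14.0 TPM in vivo (-2.12 ± 0.44, adjusted p = 0.00038, limma). Egr1 was 3.21, 4.96 and 3.92 TPM against 21.6, 17.4 and 10.2 TPM (-1.75 ± 0.34, adjusted p = 0.000177). Both were separated without overlap, and neither was called in a fit of these 2 groups alone. Fos was 7.04, 8.98 and 9.40 TPM against 26.4, 9.14 and 3.37 TPM, so that the in vivo libraries spanned the unsuffixed ones. The 4 giant cell markers summed to 53.5 to 68.2 TPM without the suffix and 0.53 to 1.504 TPM in vivo, the 4 blood markers in the table to 16.2 to 19.9 against 0.24 to 6.88 TPM, and the 4 immune markers to 0.62 to 3.06 TPM against 0. Their part in the differences was not tested. The median of all genes was 0.16, and 0.05 with median-ratio scaling, and 74.7% of all calls were higher, against 64% with it.

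Related genes, in lists chosen by name, did not all follow the members. The lists were of 20 other immediate early transcription factors (18 tested), 28 feedback and secreted genes, 26 other heat shock and chaperone genes, 18 genes of the ATF4 and unfolded protein response, and 20 MAP kinases and their target factors. In cultured Epi of E5.5, where 15.1% of all genes were called higher and 6.73% lower, 5 of the 18 transcription factors were higher and 2 lower. Nr4a1, an orphan nuclear receptor, and Egr2 were listed at 0 in vivo and held 3.15 to 21.97 and 2.61 to 6.32 TPM in culture. Jund, an AP-1 subunit, was lower, at 1.39 to 7.07 against 10.3 to 11.3 TPM (-1.33 ± 0.40). Of the 28 feedback and secreted genes 8 were higher and 6 lower. Nfkbia, the inhibitor of NF-kappa B, was 23.1 to 35.6 against 2.66 to 3.74 TPM (2.86 ± 0.48), and Ccn1, a secreted matrix protein, 106 to 134 against 18.1 to 29.3 TPM (2.35 ± 0.27). The anti-apoptotic gene Mcl1 was lower (-2.29 ± 0.23), as was the receptor signalling inhibitor Spry2 (-1.75 ± 0.47).

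Heat shock and chaperone genes in cultured Epi of E5.5 were called higher in 1 and lower in 4 of 26, a total share near the 21.8% of all genes. Hsp90aa1 was 1115 to 1191 TPM in culture and 2926 to 3483 TPM in vivo, a log2 difference of -1.48 ± 0.12 (adjusted p = 6.09e-14, limma). Hsf2, a heat shock factor, was 96.02 to 190.1 against 466 to 524 TPM (-1.93 ± 0.32). Of the ATF4 and unfolded protein response genes 4 of 18 were called, again near that share, and all were higher, among them Trib3, a pseudokinase (4.01 ± 0.47), Sesn2, a stress-induced regulator of mTORC1 (3.88 ± 0.50), and Ddit3, which encodes CHOP (2.79 ± 0.63). Of the MAP kinase list 1 of 20 was called, higher.

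In cultured VE, where 22.9% of all genes were called higher and 5.02% lower, 6 of 18 transcription factors were called, all higher, and 15 of 28 feedback and secreted genes were higher and 3 lower. Plk2, a polo-like kinase, was 65.5 to 86.6 TPM in culture and 0 to 2.65 TPM in vivo (5.40 ± 0.43), and Ccn1 182 to 221 against 23.5 to 54.7 TPM (2.51 ± 0.22). Mcl1 was lower (-1.65 ± 0.19). Of the chaperones 5 were higher and 1, Hsf2 (-1.58 ± 0.26), was lower. Sesn2 (2.61 ± 0.41) was among 6 of 18 ATF4 and unfolded protein response genes called, all higher. The MAP kinase list had 1 higher and 1 lower. The medians of the 5 lists, in the order given above, were 0.48, 1.18, 0.41, 0.77 and 0.18, beside 0.33 over all genes.

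In cultured ExE, where 9.4% of all genes were called higher and 2.43% lower, 2 transcription factors were higher and 1 lower, and 4 feedback and secreted genes were called, all higher. Plk2 was 127 to 164 TPM against 0 to 6.35 TPM in vivo (5.72 ± 0.53), and Btg2, an antiproliferative gene, 88.8 to 107 against 8.92 to 9.22 TPM (3.30 ± 0.43). The small heat shock gene Hspb1 was the 1 chaperone called higher, at 105 to 117 against 23.8 to 26.3 TPM (2.10 ± 0.17). Hsp90aa1 (-1.25 ± 0.12), Hspd1 (-1.20 ± 0.15) and Hsp90ab1 (-1.03 ± 0.10) were lower. Chac1, an ATF4 target (3.25 ± 0.51), Trib3 (2.71 ± 0.47) and Sesn2 (2.11 ± 0.50) were among 4 of 18 genes of their list called, all higher, and 3 of 20 of the MAP kinase list were called, all higher. The median of the ATF4 list was 0.99 in ExE, beside 0.19 over all genes, and 0.26 in Epi, beside 0.18.

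Unsuffixed Epi of E5.0, where 23.1% of all genes were called higher and 1.97% lower (and 63.8% of calls were higher with median-ratio scaling, against 92.1%), had 7 transcription factors higher and 1 lower, 12 feedback genes higher and 2 lower, 5 chaperones higher and 1 lower, and 5 ATF4 and unfolded protein response genes higher and 1, Ddit3 (-2.10 ± 0.56), lower. Of the MAP kinase list 2 were higher and 1 lower. At E5.25, where 7.99% of all genes were called higher and 2.7% lower, the counts were 2 higher and 6 lower, 3 and 3, 1 chaperone higher, 3 and 1, and 3 and 1, in the same order. Jund, at 2.73 to 3.12 TPM without the suffix and 22.2 to 71.4 TPM in vivo, had a log2 difference of -3.64 ± 0.36 at E5.25.

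Between E3.5 and E4.5 the members moved in different directions in different lineages, and since it is uncertain whether E3.5 embryos were dissociated like older ones, the part of dissociation in these differences was not tested. In TE, Fos was 7.80, 8.80 and 12.8 TPM at E3.5 and 127, 118 and 129.6 TPM at E4.5 (3.57 ± 0.35, adjusted p = 4.08e-12, limma). Dusp1 rose from 17.8, 19.5 and 22.9 TPM to 157, 142 and 186 TPM (2.95 ± 0.30), and Fosb from at most 0.14 TPM to between 2.09 and 2.87 TPM. Junb fell from 49.2, 43.0 and 51.9 TPM to 4.86, 4.36 and 6.37 TPM (-2.99 ± 0.33), and Jun from 8.27, 13.9 and 10.2 TPM to 2.54, 1.30 and 2.01 TPM (-1.99 ± 0.44). No library of 1 age lay within the other's range for these 5 genes. The 5 called members stand beside 21.6% of all genes called, of which 15.1% were higher, and 43.8% with median-ratio scaling, which moved the median of all genes from -0.26 to 0.

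Epi of E4.5 differed from ICM in 3 members, where 30.6% of all genes were called. Egr1 was 4.61, 5.10 and 5.10 TPM in ICM and 154, 169 and 152 TPM in Epi (4.74 ± 0.34, adjusted p = 4.93e-17, limma). Atf3 was 1.52, 0.98 and 1.14 TPM in ICM and 61.0, 25.7 and 43.3 TPM in Epi (4.25 ± 0.59), and Dusp1 was 1.18 ± 0.30 higher. Without Epi replicate 1, the library with few genes at 0, the differences were 4.76 for Egr1 and 3.96 for Atf3. PrE of E4.5 was higher than the same ICM libraries in Egr1 (3.34 ± 0.34) and Atf3 (4.44 ± 0.59), where 35.4% of all genes were called. Rn45s took 22.03% of the TPM in Epi and 17.6% in PrE of E4.5, against 0.57% in ICM. The labels do not say how embryos of either age were grown. The part of both in these differences was not tested. At E3.5, Ier2 (-1.01 ± 0.17) and Dusp1 (-1.51 ± 0.30) were lower in TE than in ICM, where 13.5% of all genes were called. The Ier2 difference was -0.99 without ICM replicate 2, -0.91 without TE replicate 2, -0.84 with median-ratio scaling and -0.88 with quantile normalization, under the size set for a call.

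From E4.5 to E4.75 Egr1 and Atf3 fell in both lineages of the former ICM. In Epi, Egr1 fell to 13.3, 11.1 and 12.5 TPM (-3.58 ± 0.34) and Atf3 to 0.10, 0 and 0.83 TPM (-5.05 ± 0.59), while Fos rose from 18.6, 17.8 and 9.61 TPM to 58.2, 64.0 and 50.7 TPM (1.89 ± 0.35). These 3 stand beside 24.6% of all genes called, of which 64.9% were higher, and 53% with median-ratio scaling. The median of all genes was 0.13, and 0 with that scaling. Markers of TE and ExE in Epi summed to 618 to 716 TPM at E4.5 and 1446 to 1567 TPM at E4.75. Giant cell markers summed to 3.53 to 11.7 TPM and 92.3 to 105 TPM, and epiblast markers to 726 to 891 TPM and 749 to 811 TPM. The part of these shifts in the Epi differences was not tested. In PrE, Egr1 fell to 15.9, 13.7 and 18.3 TPM (-1.83 ± 0.34) and Atf3 to 6.998, 10.9 and 8.24 TPM (-2.32 ± 0.59), where 21.7% of all genes were called. The Atf3 call in PrE was lost with a pseudocount of 0.1 TPM (-2.43). The E4.5 groups of both lineages are those with the most Rn45s. How the E4.5 and E4.75 embryos were grown is not stated in the labels, and its part in these differences was not tested. With Rn45s left out of the TPM total, all 84 calls of members in the 25 comparisons held. That step only rescales the other genes of each library by 1 factor, so it cannot test other differences of the libraries with much Rn45s. In vivo Epi of E5.5 against E5.25 gave 1 member, Jun (-2.28 ± 0.49), where 30.1% of all genes were called, and without in vivo replicate 1 of E5.5 it was -1.21 and not called.

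Trophoblast of E4.75 was set against TE of E4.5. The labels do not say how embryos of either age were grown. Junb was 59.5, 61.5 and 62.2 TPM in ExE and 109, 115 and 95.8 TPM in TGC, against at most 6.37 TPM in TE (3.34 ± 0.33 and 4.13 ± 0.33). In ExE Jun (1.59 ± 0.44), Egr1 (1.40 ± 0.34) and Ier2 (1.37 ± 0.17) were also higher and Fosb (-1.01 ± 0.38) lower, where 21% of all genes were called. In TGC Jun (1.82 ± 0.44), Egr1 (1.57 ± 0.34) and Ier2 (1.77 ± 0.17) were higher, where 14.8% were called. Median-ratio scaling moved the median of all genes in ExE from 0.40 to 0.08 and the higher share of calls from 91.4% to 53%. In TGC it moved them from 0.22 to 0.05 and from 86.9% to 60.2%. With it the ExE differences of Jun (1.06), Egr1 (0.95) and Ier2 (0.66) were no longer called, as with quantile normalization (0.80, 0.73 and 0.88). Median-ratio scaling also called Fos (-1.47) and Dusp1 (-1.38) lower in ExE than in TE, and quantile normalization called Fos (-1.02) lower. In TGC, quantile normalization called Fosb (-1.08) and Atf3 (-1.54) lower than in TE. The ExE call of Fosb was lost without any 1 of the 6 libraries (-0.93 to -1.10).

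PrE was set against Epi at 4 ages, with unsuffixed Epi at E5.0 and E5.25. Dusp1 was lower in PrE at E4.5 (-1.91 ± 0.30), E4.75 (-1.94 ± 0.30) and E5.0 (-2.38 ± 0.30), where 18.1, 16.0 and 23.1 TPM stood against 105, 109 and 93.9 TPM. Atf3 was higher in PrE at E4.75 (2.93 ± 0.59), E5.0 (2.30 ± 0.59) and E5.25 (3.73 ± 0.59), where 25.3, 45.5 and 24.8 TPM stood against 0.73, 2.86 and 1.03 TPM. Fos was lower in PrE at E4.75 (-2.42 ± 0.35) and E5.0 (-1.61 ± 0.35). At E5.25 it was higher (2.196 ± 0.35), with 39.1, 46.1 and 41.4 TPM in PrE and 7.04, 8.98 and 9.40 TPM in Epi. Egr1 was lower in PrE at E4.5 (-1.41 ± 0.34) and higher at E5.25 (1.22 ± 0.34), and Jun was higher at E5.0 (1.17 ± 0.44) and E5.25 (1.92 ± 0.44). The Jun call at E5.0 was lost without Epi replicate 1 or 2 or PrE replicate 2 or 3 (1.05 to 1.21). With in vivo Epi as the reference, a comparison chosen after seeing the data, 8 members were called at E5.0 (where 34.4% of all genes were called) and 4 at E5.25 (28.7%). At E5.25 Egr1 (-0.53 ± 0.34) and Jun (-0.20 ± 0.44) then turned in direction and were not called, while Fos (2.02 ± 0.35) and Atf3 (4.747 ± 0.59) were still higher in PrE. Junb at E5.0 was 4.26 ± 0.33 higher in PrE than in in vivo Epi, against 0.53 ± 0.33 with unsuffixed Epi. With the Epi groups named first, the counts were 2, 3, 4 and 4 of 10 members, beside 28.6%, 17%, 24.5% and 21.1% of all genes called, at E4.5, E4.75, E5.0 and E5.25. Markers of TE and ExE summed on average to 138, 303, 1270 and 3263 TPM in PrE at these ages. In the same Epi groups they summed to 659, 1519, 1005 and 738 TPM. Their part in the differences was not tested.

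Among trophoblast groups and neighbours, ExE of E4.75 differed from Epi of E4.75 in Junb (1.05 ± 0.33) and Egr1 (-1.24 ± 0.34), where 8.81% of all genes were called. Junb was not called without Epi replicate 1 (0.90) or 3 (1.05) or without any ExE replicate (1.03 to 1.06), and Egr1 not without ExE replicate 2 (-1.13). TGC and ExE of E4.75 differed in 0 members by limma, with 2 at an unadjusted p under 0.05, where 4.36% of all genes were called. With median-ratio scaling 1 member was called there, Junb, higher in TGC (1.07). In culture at E5.5 TGC were lower than ExE in Egr1, at 2.62, 3.31, 3.37 and 2.34 TPM against 38.6, 32.9 and 40.1 TPM (-3.29 ± 0.32, adjusted p = 9.65e-13). Atf3 (-2.53 ± 0.55) and Jun (-1.38 ± 0.41) were lower too, where 37.8% of all genes were called. Median-ratio scaling moved the median of all genes there from -0.51 to 0, the higher share of calls from 16.6% to 50.9%, and Jun to -0.44, which was not called (-0.45 with quantile normalization). In TGC against ExE of E4.75 it moved them from -0.15 to 0 and from 48.7% to 67%. In culture at E5.5 that scaling also called Junb (1.46) and Fos (1.01) higher in TGC than in ExE. Giant cell markers summed to 101479 to 115322 TPM in these cultured TGC libraries and 175 to 201 TPM in cultured ExE. Their part in the differences was not tested. VE_ExE was higher than VE_Epi in Fos (1.98 ± 0.39) and Egr1 (2.16 ± 0.38), where 16.3% of all genes were called. Neither was called in a fit of those 2 groups alone.

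The members did not share 1 pattern over the 23 groups. The Pearson correlation of group means of log2(TPM + 1), given as a description of 23 points that share tissues and ages, was 0.92 for Fos and Fosb and 0.75 for Jun and Junb. It was 0.86 for Hspa1a and Hspa1b, whose reads may be shared. For Fos and Egr1 it was 0.06. In TE of E4.5 the Fos level was 5.88 ± 0.24 log2 units above that of Egr1 (SD, n = 3), and in Epi of E4.5 it was below, at -3.33 ± 0.46 (SD, n = 3). Among 11477 genes, those most like Fos after Fosb were Fgd6 (0.78) and Blvra (0.77). The closest to Egr1 were Khdc4 (0.84), Ipo4 (0.83) and Nr1d1 (0.83), and to Dusp1 Tfrc (0.80), Eif4ebp1 (0.78) and Myc (0.77). For Junb they were Necap1 (0.87), Pip5k1c (0.86) and Nectin2 (0.85), for Ier2 Ranbp3 (0.87), Fip1l1 and Aar2 (0.86 each), for Jun Brip1os (0.84), Ctnnd1 (0.81) and BC065397 (0.80), and for Atf3 Wdr81 (0.82), Ptpn23 (0.81) and Sars (0.80).

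**Figure D4:**
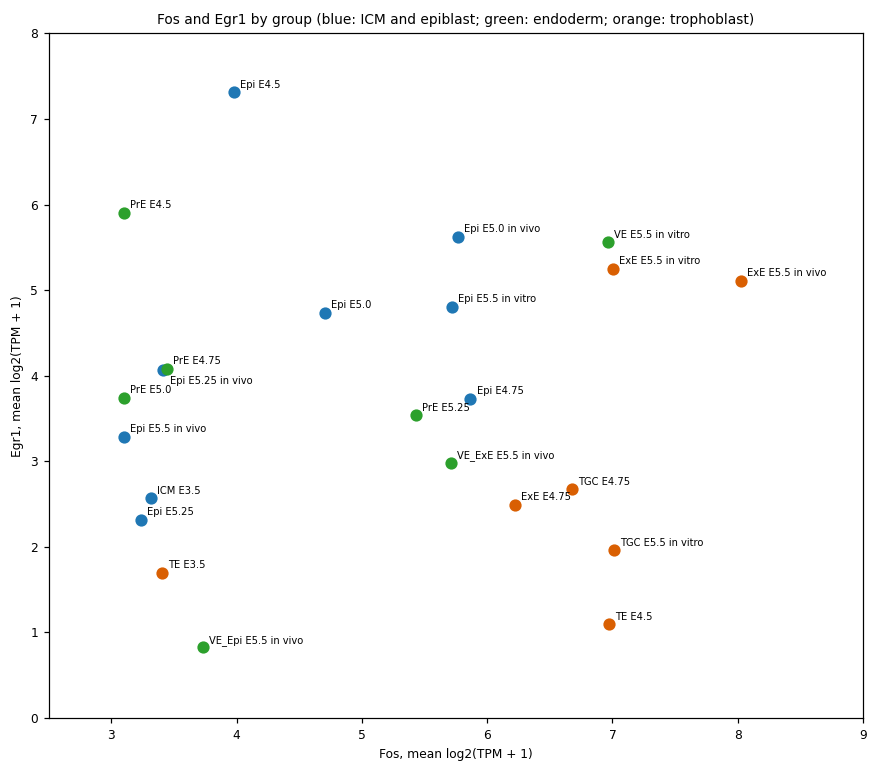
Group means of log2(TPM + 1) of Fos on the horizontal axis and Egr1 on the vertical axis, with 1 point for each of the 23 groups. Epi of E4.5 is highest for Egr1, TE of E4.5 is high for Fos with little Egr1, and cultured VE and both ExE groups of E5.5 are high for both.

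Summed over the 10 genes, ExE of E5.5 in vivo held the highest level, 1172 and 1187 TPM, and cultured ExE followed with 886 to 1099 TPM. Cultured VE held 881 to 1107 TPM, VE_Epi 176 to 212 TPM and VE_ExE 213 to 430.1 TPM. Cultured Epi of E5.5 held 769 to 944 TPM and in vivo Epi 252 to 329 TPM.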

How the data were processed

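RNA-seq libraries of 10 to 100 cells (polyA RNA, Smart-seq2, 17 cycles of cDNA amplification, per the labels' protocols) gave 1 table of TPM values, deposited by the authors. The submitters' processing notes name HISAT2 2.2.1, StringTie 2.2.1, Cufflinks and mm10. Strand handling and gene models are not given in the sources used here. TPM keeps no read depth, so no interval for counting error can be given. From the deposited TPM, log2(TPM + 1) was computed, and fold changes on that scale are too small for weakly expressed genes. A gene was kept if 3 or more libraries reached 1 TPM. limma 3.58.1 (R 4.3.3) was fitted once over 23 groups and 67 libraries, with a trend in the variance and Benjamini-Hochberg adjustment over all 15567 genes in each comparison. The fit shares 1 estimate of spread over all groups. It was tested on simulated data with 1 spread per gene for all groups, which cannot check that sharing.

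Libraries were grouped by their labels. The members and lists were chosen with earlier results of these data known. All 10 members were named. From each other list, in each of the 5 culture or suffix comparisons, up to 3 called genes per direction by size of difference and up to 2 uncalled genes of highest mean TPM could be named. For each member the 3 genes of most similar group means were found, and those of Fosb, Hspa1a and Hspa1b are not listed above. Alternatives were another pseudocount (0.1 TPM), no filter, median-ratio scaling, quantile normalization, no Rn45s, a replicate block, a fit to only the groups compared, no minimum on the difference and leaving out each library. Fits of only the E5.5 groups, and comparisons with each in vivo VE group alone or of PrE with in vivo Epi, were chosen after seeing the data. Same-numbered libraries shared a number only. Gene positions come from GENCODE M21 (GRCm38) and promoters from RefSeq. Python 3.11.15, pandas 2.3.3 and matplotlib 3.10.9 were used.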

Additional observations from a re-analysis of the deposited data

Results flagged for a closer look

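The in vitro minus in vivo difference at E5.5 differed between tissues in 13 tests (limma, interaction of label and tissue), on the log2 scale. Culture, recovery from Matrigel or decidua and the marker shifts given above changed together, and the part of each was not tested. For ExE minus Epi these were -3.64 for Fos, -2.45 for Fosb, -2.28 for Jun, -2.05 for Dusp1 and -1.30 for Ier2. For VE minus Epi the value was 2.14 for Egr1. For VE minus ExE they were 3.52 for Egr1, 3.27 for Fos, 2.40 for Fosb, 2.12 for Dusp1, 1.98 for Ier2, 1.97 for Junb and 1.85 for Jun. The 3 pairs of tissues share libraries. Since Fosb was listed at 0 in Epi and in VE_Epi of E5.5 in vivo, its values in both pairs depend on the pseudocount and are no bounds. In TGC of E5.5, where 4 libraries allow a check for a single library far from the others, 10 genes were checked and 0 stood out.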

How the results depend on the processing

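Of 84 called member differences 2 changed direction, Egr1 (-0.53) and Jun (-0.20) in PrE minus Epi of E5.25 with in vivo Epi as the reference (chosen after seeing the data), and 38 were lost under at least 1 alternative: 26 with only the groups compared, 14 on leaving out 1 library, 8 with median-ratio scaling, 8 with quantile normalization, 5 with the other pseudocount and 3 without the filter. Of 166 uncalled ones 74 changed sign under at least 1 alternative, 13 in the culture or suffix comparisons and 61 in the others, and 37 gained a call under at least 1 alternative other than dropping the minimum difference. With only the groups compared, the members called were 0 in Epi of E5.25 (3 at an unadjusted p under 0.05, limma), 3 in Epi of E5.5, 3 in VE and 4 over the interactions. With only the E5.5 groups, chosen after seeing the data, they were 0 in ExE (2 unadjusted) and 4 over the interactions, and with quantile normalization 2 in ExE. The 13 changed sign as follows, some on leaving out 1 library only: at 0.1 TPM Hspa1a in Epi of E5.25 (0.92), Hspa1a in ExE (0.17) and Hspa1b in ExE (0.21), with median-ratio scaling Dusp1 in Epi of E5.0 (-0.45), Junb in ExE (-0.067) and Egr1 in ExE (-0.052), and with quantile normalization Dusp1 in Epi of E5.0 (-0.24), Egr1 in ExE (-0.12) and Hspa1b in Epi of E5.5 (-0.19). The cause was not tested.

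Leaving out 1 library gave 3 to 5 members called in Epi of E5.0 (3 without in vivo replicate 2 or unsuffixed replicate 1) and 0 to 1 in ExE (0 without in vitro replicate 1, 2 unadjusted, or in vivo replicate 1, 0 unadjusted). On leaving out 1 library the sign changed in Epi of E5.0 Atf3 (-0.74 to 0.17) and Hspa1a (-0.40 to 0.31), in Epi of E5.25 Fos (-0.82 to 0.50), Junb (-0.55 to 0.32), Hspa1a (-0.65 to 0.87) and Hspa1b (-0.56 to 0.30), and in ExE Junb (-0.061 to 0.32), Ier2 (-0.26 to 0.19), Hspa1a (-1.46 to 1.11) and Hspa1b (-0.72 to 0.64). With the replicate block 8 members were called in Epi of E5.5, 8 in VE, 1 in ExE, 5 and 2 in Epi of E5.0 and E5.25, 13 over the interactions, 12 in blastocyst, 21 in lineage (20 without it) and 15 in age comparisons, and 0 calls were lost. Deviations of same-numbered libraries correlated at -0.05 to 0.17, and in 0 of 18 group pairs were all over 0.1.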
